A study of Homo sapiens with 18 samples.

Results

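Gene expression in LNCaP cells that received M1 macrophage medium together with the inhibitor IKK16 was compared with that in control cells, to describe the response to M1 medium that remains under the inhibitor. The comparison uses 6 of the 18 RNA libraries of the series, namely the 3 libraries labelled as M1 medium with IKK16 and the 3 labelled as control. LNCaP is a human prostate cancer cell line that depends on androgen signalling and makes prostate-specific antigen; the labels give its genotype as wild type. All cells were first kept in low-serum medium and then for 48 h in medium with heat-inactivated serum. The control group received this medium alone. The IKK16 group received medium conditioned by M1-polarised THP-1 cells, macrophages made from a human monocytic leukaemia line, diluted 1:4, together with IKK16 at 0.7 μmol/l. Libraries with the same M1 medium and an equal amount of the solvent DMSO (3) or with M1 medium alone (3) are given beside it where they show what changed. The control contained no DMSO, and none of the 18 libraries received IKK16 without M1 medium. In the comparison with control the effect of M1 medium and those of IKK16 itself and of the solvent therefore cannot be told apart. What polarised the macrophages is not given in the sources used here. LNCaP is 1 cell line, and the labels do not say whether the 3 libraries of a group come from separate cultures; p-values therefore cover no more than the spread between the libraries, which may be technical.

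NF-kB is a family of transcription factors that rest in the cytoplasm bound to IκB proteins. IκB kinases, which IKK16 inhibits, mark IκB for destruction and so release NF-kB to switch on chemokines, cytokines, adhesion molecules, survival factors and its own inhibitors. Macrophages of the M1 type release tumour necrosis factor, interleukins and other inflammatory proteins, and the cells that receive them also use routes that do not need IκB kinases, such as the JAK-STAT route of interferons and of the interleukin 6 family. In luminal prostate cells androgens drive the secreted kallikreins, among them KLK3, which encodes prostate-specific antigen.

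Counts assigned to genes summed to 24202741.5 to 33814818.0 per library, and log CPM values of libraries of the same group correlated with Pearson's r of 0.993 to 0.995 across genes. The cells carried markers of luminal prostate cells: all 10 listed (such as KLK3, FOXA1 and KRT18) passed the filter on low counts, with a summed level of 8142 to 8314 CPM (counts scaled by library size) in control and 4190 to 4245 with IKK16. Most of that fall came from KLK3, whose levels are given below. By gene 3 were called higher and 5 lower than control, with a median log2 fold change of -0.24. Of 15 macrophage markers, 6 passed that filter. Among those that did not pass, TYROBP and CYBB had no count in either group, and PTPRC and CD14 had 2 and 3 counts or fewer over 3 libraries. ITGAX, also below the filter, had 0 counts over the control libraries and 13 over the IKK16 libraries. The summed level of the list was 228 to 231 CPM in control, 240.0 to 254 with DMSO and 255 to 271 with IKK16. CSF1R alone supplied 223 ± 1.06 CPM in control and 226 ± 7.21 with IKK16. CD68, ITGAM, LYZ and LAPTM5 were called higher with IKK16 than in control, each by at least 2-fold, and SPI1 was called lower. These are 4 and 1 of the 6 (26.8% and 25.6% of all genes tested, by the test described next). With a filter of 1 CPM none of the 6 was called lower.

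M1 medium with IKK16 still changed a large part of the measured genes. Of 17073 genes tested with edgeR (quasi-likelihood test over all libraries, Benjamini-Hochberg adjusted p under 0.05, two-sided), 4568 were higher than in control and 4378 lower, that is 26.8% and 25.6%. Changes of at least 2-fold were seen for 1210 genes that rose (7.09%) and 735 that fell (4.31%), changes of at least 4-fold for 579 and 172, and changes of at least 10-fold for 275 and 38. M1 medium with DMSO, set against the same 3 control libraries, gave 5302 higher (31.1%) and 5300 lower (31%), with 1611 (9.44%) and 1202 (7.04%) of at least 2-fold. Between the 2 treated groups, 2378 genes were higher (13.9%) and 2256 lower (13.2%) with IKK16 than with DMSO, 142 (0.832%) and 283 (1.66%) of them by at least 2-fold. Called in either direction were 52.4%, 62.1% and 27.1% of genes in these 3 comparisons. The counts over gene lists given below are to be read beside these shares of all genes. The median log2 fold change over all genes tested was -0.008 against control with IKK16, -0.009 with DMSO and 0.002 between the treated groups. Fewer cells of one kind and less RNA per cell cannot be told apart in such bulk libraries.

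**Figure D1:**
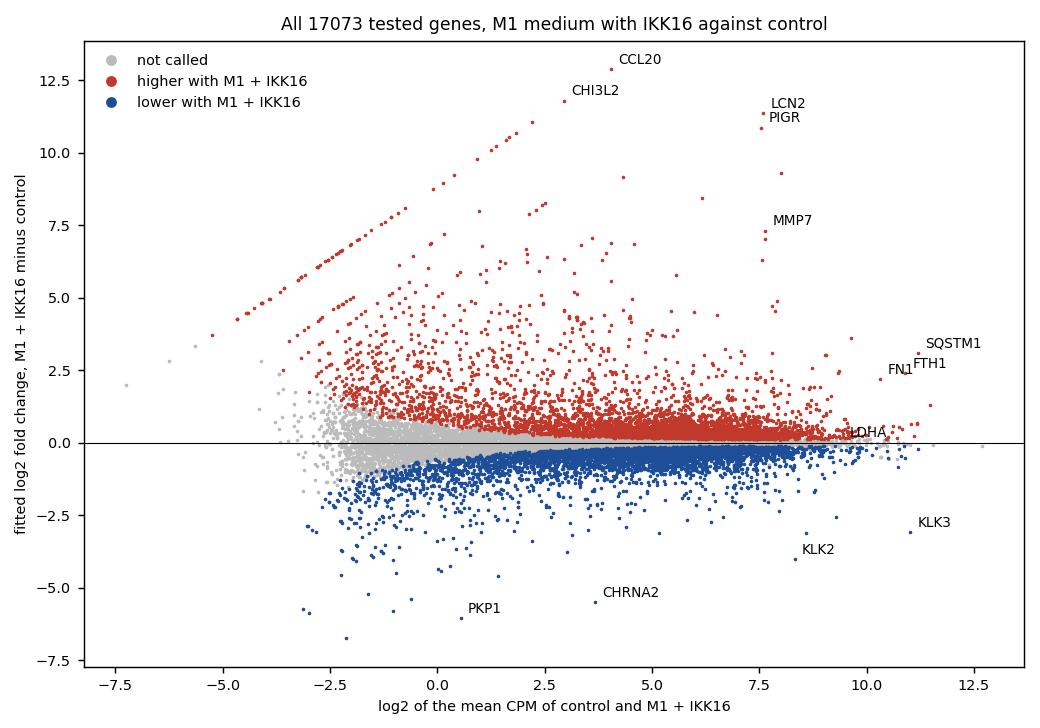
Each point is 1 of the 17073 genes, with its fitted log2 fold change between M1 medium with IKK16 and control (vertical axis, edgeR) against its average level (horizontal axis, log2 CPM); colours mark genes called higher (4568) or lower (4378), and some of the genes described in the text are labelled. The diagonal edge at the upper left holds genes with no count in the control libraries.

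The solvent itself made a smaller difference. M1 medium with DMSO against M1 medium alone gave 437 genes higher (2.56%) and 336 lower (1.97%) with edgeR (4.53% in all), 2 (0.0117%) and 7 (0.041%) of them by at least 2-fold. These counts rest on single libraries. Without M1 library 1, 2 or 3 they were 72, 29 and 811 higher and 97, 47 and 678 lower, and without DMSO library 1, 2 or 3 they were 42, 93 and 144 higher and 68, 83 and 143 lower.

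NANOG, SOX2 and CD44, markers linked to stem-like cells, are named in the title of the series. CD44, the cell surface receptor for hyaluronan (chromosome 11, 35139171 to 35232402), stood at 0.362, 0.632 and 0.683 CPM in the 3 control libraries, 2.64, 3.03 and 3.07 with DMSO and 1.62, 1.42 and 0.759 with IKK16. All treated libraries lay above the control libraries, and the third IKK16 library lay close to them. CD44 rose 2.25-fold over control with IKK16 (log2 fold change of 1.17 ± 0.30 SE; edgeR adjusted p = 0.00217) and 5.19-fold with DMSO (2.38 ± 0.26). SOX2 had no count in the control and IKK16 libraries and 6 counts over the 3 DMSO libraries, and NANOG had none in any of them; neither passed the filter, and 0 counts limit a gene to 0.0899 to 0.126 CPM per library (3 counts, counting error only). The study may have chosen these genes on these libraries, so their direction is not independent evidence.

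The genes with the largest rises under IKK16 had little or no expression in control cells: 6 of the 8 had no count in any control library. Some of them overlapped with DMSO in level under IKK16. LCN2, which encodes the iron-trapping antibacterial protein lipocalin 2, stood at 0.132, 0.211 and 0.0931 CPM in control, 419, 418 and 386 with DMSO and 398, 391 and 364 with IKK16. CCL20, a chemokine that attracts immature dendritic cells, was at 0 in all 3 libraries in control and at 32.3, 28.3 and 28.5 CPM with DMSO and 36.1, 33.3 and 29.1 CPM with IKK16. PIGR, the receptor that carries antibodies across epithelia, went from 0.296, 0.140 and 0.155 CPM to 398, 381 and 379 with DMSO and 375, 367 and 382 with IKK16. For these 3 genes the DMSO and IKK16 libraries overlapped, while control lay far below both. The rise over control with IKK16 was 2612-fold for LCN2 (log2 fold change 11.35 ± 0.12 SE, edgeR adjusted p = 7.6e-27), 1854-fold for PIGR and at least 332-fold for CCL20, with the control set at 3 counts per library. Against DMSO none of the 3 passed (log2 differences of -0.09 ± 0.06 SE for LCN2, -0.04 ± 0.05 for PIGR and 0.15 ± 0.10 for CCL20; edgeR adjusted p = 0.285, 0.562 and 0.293).

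The other 5 differed between IKK16 and DMSO. CHI3L2, a chitinase-like secreted protein, was at 0 in all 3 libraries in control, 128, 124 and 139.6 CPM with DMSO and 17.03, 14.3 and 14.9 CPM with IKK16, so that it was at least 155-fold above control and 8.48-fold below DMSO (edgeR adjusted p = 2.14e-14). SERPINB7, a protease inhibitor of epithelia, and CES1, a carboxylesterase, were also at 0 in control and reached 7.18 ± 1.01 and 6.10 ± 0.917 CPM with IKK16 (mean ± SD, n = 3, as in all values of this form) against 13.7 ± 1.71 and 11.3 ± 1.19 with DMSO. SNPH, which anchors mitochondria in nerve cells, and PIP, a secreted protein of glandular cells, were at 0 in control too, and were higher with IKK16 (9.25 ± 0.658 and 6.42 ± 0.873 CPM) than with DMSO (5.49 ± 1.21 and 4.55 ± 0.717 CPM; edgeR adjusted p = 0.00132 and 0.0315). The call between the treated groups for PIP was lost without DMSO library 1 or 2 or without IKK16 library 1 or 3 (edgeR adjusted p of 0.0938, 0.137, 0.107 and 0.105).

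Among genes that rose at least 4-fold, the most abundant were SQSTM1, FTH1, FN1, SLC44A4 and BEST1. SQSTM1, which encodes the autophagy receptor p62, stood at 503, 489 and 495 CPM in control, 4767, 4583 and 4587 with DMSO and 4279.9, 4238 and 4141 with IKK16. FTH1, the heavy chain of the iron store ferritin, was at 609.8, 619.5 and 605 CPM in control, 4127, 4069.6 and 4056 with DMSO and 3192, 3151 and 3262 with IKK16. BEST1, which overlaps FTH1 on chromosome 11, also rose, 5.26-fold with IKK16, and reads of the 2 genes may not be fully separable. Both SQSTM1 and FTH1 stayed far above control in every treated library, 8.51-fold and 5.24-fold with IKK16. FN1, the matrix protein fibronectin, stood at 464, 431 and 479.8 CPM in control, 4132, 4661 and 4991 with DMSO and 1953, 2206 and 2149 with IKK16; it was 4.59-fold above control and 2.19-fold below DMSO (edgeR adjusted p = 1.11e-08). SLC44A4, a choline and thiamine pyrophosphate transporter, stood at 198 ± 5.99 CPM in control, 1289 ± 13.3 with DMSO and 1107 ± 22.1 with IKK16.

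**Figure D2:**
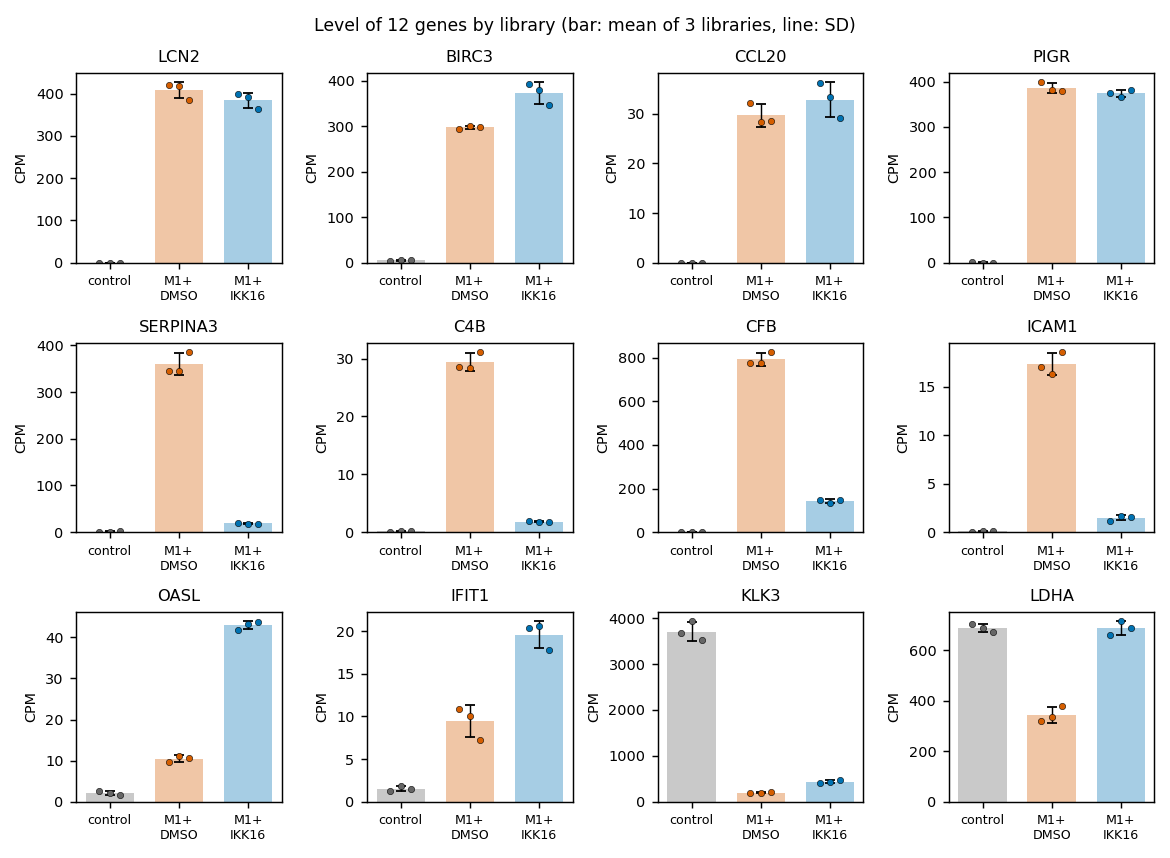
Level of 12 genes in CPM (vertical axes, linear, from 0) in the 3 control, 3 M1 with DMSO and 3 M1 with IKK16 libraries; points are libraries, bars their mean and lines the SD. In the top row IKK16 overlaps with DMSO except for BIRC3, which is higher, in the middle row it lies far below DMSO, OASL and IFIT1 exceed DMSO, KLK3 is low in both treated groups and LDHA overlaps with control.

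The genes with the largest falls include parts of desmosomes and androgen-dependent genes. PKP1 and DSG1 encode desmosome proteins that join neighbouring cells. PKP1 was at 2.07, 2.67 and 3.88 CPM in control and had 3 counts over the 3 IKK16 libraries (edgeR adjusted p = 2.21e-09), and DSG1 went from 4.61, 5.09 and 5.74 CPM to 0.0839, 0.150 and 0.115 with DMSO and 0.356, 0.163 and 0.114 with IKK16. CHRNA2, a nicotinic acetylcholine receptor subunit, was at 24.3, 25.2 and 25.5 CPM in control and at 0.436, 0.366 and 0.835 CPM with IKK16, 45.0-fold lower. With DMSO, CHRNA2 was at 0.126, 0.120 and 0.269 CPM and PKP1 had 9 counts over 3 libraries, so these genes were low in every treated library. DOCK8, a regulator of the cytoskeleton known from lymphocytes, SLC38A4, an amino acid transporter, and ADH1C, an alcohol dehydrogenase, fell from 1.28 ± 0.234, 2.05 ± 0.231 and 3.16 ± 0.239 CPM to 0.0253 ± 0.0438, 0.0931 ± 0.103 and 0.208 ± 0.0762 CPM. KLK2 and TARP, which complete the group, are androgen-dependent in prostate cells and are taken up with the other androgen-dependent genes.

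Promoters are shown for 6 genes picked from those named in the results on NF-kB targets and on antiviral genes. LCN2, BIRC3 and CFB are classical NF-kB targets, of which LCN2 did not pass and BIRC3 was higher against DMSO while CFB was lower. IFIT1, IFIT3 and ISG15 are antiviral genes that were higher with IKK16 than with DMSO. The sequences are the RefSeq plus strand of GRCh38.p14 from 250 bases before to 50 after the gene start, which for these genes is also the direction of transcription. Capitals mark matches, on either strand, to the NF-kB motif, to the interferon-stimulated response element (ISRE, searched as GAAA, any 2 bases and GAAA) and to the gamma-activated site (GAS, TTCNNNGAA). Matches may overlap, as the pair in ISG15 does.
The LCN2 promoter (chr9:128149203-128149502) held 1 NF-kB match, the BIRC3 promoter (chr11:102317234-102317533) held 2, and the CFB promoter (chr6:31945845-31946144) held 1 match to each of ISRE, NF-kB and GAS, in that order.
LCN2: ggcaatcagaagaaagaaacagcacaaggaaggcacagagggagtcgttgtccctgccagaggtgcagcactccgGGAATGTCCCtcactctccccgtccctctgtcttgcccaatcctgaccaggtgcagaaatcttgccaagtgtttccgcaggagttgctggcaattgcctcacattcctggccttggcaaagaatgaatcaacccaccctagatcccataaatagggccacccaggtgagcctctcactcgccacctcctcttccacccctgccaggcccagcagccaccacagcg
BIRC3: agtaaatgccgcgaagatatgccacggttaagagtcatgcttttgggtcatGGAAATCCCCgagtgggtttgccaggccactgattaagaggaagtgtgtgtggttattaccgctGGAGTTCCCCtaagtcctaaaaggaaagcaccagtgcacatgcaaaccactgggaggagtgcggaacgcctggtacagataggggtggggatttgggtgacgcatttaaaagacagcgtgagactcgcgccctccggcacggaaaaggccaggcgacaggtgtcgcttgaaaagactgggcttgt
CFB: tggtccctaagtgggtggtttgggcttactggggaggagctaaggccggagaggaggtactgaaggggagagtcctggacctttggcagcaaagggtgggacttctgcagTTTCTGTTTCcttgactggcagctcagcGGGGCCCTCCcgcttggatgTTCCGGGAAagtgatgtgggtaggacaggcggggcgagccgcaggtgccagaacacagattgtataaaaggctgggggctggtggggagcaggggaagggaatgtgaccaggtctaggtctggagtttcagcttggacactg
The IFIT1 (chr10:89392373-89392672), IFIT3 (chr10:89327747-89328046) and ISG15 (chr1:1013247-1013546) promoters held 2 ISRE matches each and no match to the other motifs.
IFIT1: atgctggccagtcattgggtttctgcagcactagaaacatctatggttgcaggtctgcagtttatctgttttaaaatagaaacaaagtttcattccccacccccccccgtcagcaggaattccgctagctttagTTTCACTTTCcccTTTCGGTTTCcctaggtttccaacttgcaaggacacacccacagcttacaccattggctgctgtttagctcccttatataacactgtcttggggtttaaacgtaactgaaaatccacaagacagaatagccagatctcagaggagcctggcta
IFIT3: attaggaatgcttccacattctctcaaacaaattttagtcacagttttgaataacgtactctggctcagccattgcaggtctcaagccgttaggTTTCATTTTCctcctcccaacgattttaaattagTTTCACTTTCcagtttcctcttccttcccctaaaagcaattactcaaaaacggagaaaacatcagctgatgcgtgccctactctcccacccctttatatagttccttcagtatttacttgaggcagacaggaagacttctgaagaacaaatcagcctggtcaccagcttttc
ISG15: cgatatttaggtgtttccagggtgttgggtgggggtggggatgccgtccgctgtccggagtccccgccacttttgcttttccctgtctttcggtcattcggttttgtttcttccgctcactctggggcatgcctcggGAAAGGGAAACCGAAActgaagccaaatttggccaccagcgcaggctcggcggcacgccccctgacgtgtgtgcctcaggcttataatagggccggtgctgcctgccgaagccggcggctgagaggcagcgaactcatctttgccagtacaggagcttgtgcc
Among all 27305 promoters of the table, 10.8% held an NF-kB match, 3.65% an ISRE match and 7.88% a GAS match. An NF-kB match was present in 9 of the 20 listed NF-kB target genes with a promoter entry (45%) and in 11 of 22 chemokines and cytokines (50%). An ISRE match was present in 17 of 25 type I interferon response genes (68%), in 10 of 19 interferon gamma response genes (52.6%) and in none of 21 androgen-dependent genes. A match describes the letters of the window and is not evidence of binding. Whether the matches bear on the differences between IKK16 and DMSO was not tested.

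The parts of the NF-kB pathway itself were higher than control under IKK16. All 22 listed components passed the filter and all were called higher than in control with IKK16, against 26.8% of all genes tested; their median log2 fold change was 1.28, beside -0.008 over all genes. With DMSO, 21 of 22 were called higher than the same controls (31.1% of all genes), with a median of 1.43. Between IKK16 and DMSO, 1 of the 22 was higher (13.9% of all genes) and 13 were lower (13.2%). RELB, the NF-kB subunit of the non-canonical route, stood at 2.21, 2.07 and 2.92 CPM in control, 63.8, 60.7 and 62.6 with DMSO and 39.4, 44.5 and 46.9 with IKK16. TNFAIP3, the deubiquitinase A20 that ends NF-kB signalling, was at 2.37, 1.51 and 1.68 CPM in control, 60.7, 57.8 and 63.0 with DMSO and 32.3, 30.6 and 30.1 with IKK16. RELB was thus 18.04-fold and TNFAIP3 16.7-fold above control with IKK16, and both lay below every DMSO library (log2 differences of -0.52 ± 0.08 and -0.96 ± 0.07 SE; edgeR adjusted p = 2.21e-05 and 7.89e-10). Further levels in control, DMSO and IKK16 follow in this order where no group is named. NFKBIA, which encodes IκBα, stood at 54.5 ± 2.24, 326 ± 7.85 and 291 ± 1.18 CPM, and NFKB2, the precursor of the p52 subunit, at 73.4 ± 3.38, 313 ± 4.61 and 325 ± 9.79. NFKBIZ, an atypical nuclear IκB, rose 23.7-fold with IKK16 and did not pass against DMSO (-0.25 ± 0.09 SE, edgeR adjusted p = 0.0556), although it did in 7 of the alternatives, among them DESeq2 (0.0429), the 2 groups alone (0.0231), and edgeR without DMSO library 2 (0.0340) or IKK16 library 1 (0.0124). MAP3K14, the kinase NIK of the non-canonical route, was the component that was higher with IKK16 (60.6 ± 2.88 CPM) than with DMSO (44.6 ± 1.29), with 37.0 ± 1.29 in control.

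The targets of NF-kB did not move as one under the inhibitor. Of 24 listed targets 19 passed the filter, of which 16 were higher and 1 lower than control with IKK16 (26.8% and 25.6% of all genes). The median log2 fold change of the 19 was 3.80 (2.80 with genes at 0 in control set to their lower bound). With DMSO 18 were higher and 1 lower, with a median of 5.55 (3.36 with the bounds). Genes with counts only under M1 medium pass the filter because of those libraries, so the counts describe the members that passed. Between IKK16 and DMSO, 3 were higher and 11 lower (13.9% and 13.2% of all genes), and the count of those higher is near that share. The steepest reductions were in ICAM1, CFB and C3. ICAM1, the adhesion molecule that binds leukocytes, stood at 0, 0.105 and 0.124 CPM in control, 17.03, 16.3 and 18.6 with DMSO and 1.19, 1.67 and 1.56 with IKK16, and CFB, complement factor B, at 0.329, 0.351 and 0.527 CPM in control, 776, 774 and 827 with DMSO and 147, 134 and 147 with IKK16. With IKK16 every library lay between control and DMSO: ICAM1 was 11.7-fold and CFB 5.56-fold below DMSO (edgeR adjusted p = 4.19e-14 and 1.23e-18), and still 18.2-fold and 347-fold above control. C3, the central complement protein, was at 0 in control, 14.04 ± 1.65 CPM with DMSO and 1.88 ± 0.329 with IKK16, at least 19.0-fold above control. SOD2, the mitochondrial superoxide dismutase, stood at 172 ± 2.61, 1769 ± 62.9 and 653 ± 16.6 CPM in control, DMSO and IKK16.

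BIRC3 and PTGS2 went the other way. BIRC3, an inhibitor of apoptosis that also restrains the non-canonical route, stood at 4.48, 4.71 and 5.09 CPM in control, 293, 301 and 297 with DMSO and 392.1, 379.9 and 346 with IKK16. PTGS2, the inducible cyclooxygenase, was at 0.0329, 0.211 and 0.0310 CPM in control, 5.71, 6.12 and 5.41 with DMSO and 8.95, 8.01 and 8.24 with IKK16. In both genes each IKK16 library exceeded each DMSO library (log2 differences of 0.33 ± 0.05 and 0.54 ± 0.13 SE; edgeR adjusted p = 6.47e-05 and 0.004). TNFAIP8, an apoptosis regulator, was the target called lower than control with IKK16 (21.7 ± 1.30 against 26.4 ± 1.90 CPM), although it was higher with DMSO (38.7 ± 3.68 CPM). BCL2L1 and CCND1 did not pass against control (log2 fold changes of -0.07 and 0.04).

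Chemokines and cytokines that passed the filter were largely still raised. Of 32 listed, 19 passed the filter and 16 of these were higher than control with IKK16 and none lower (26.8% and 25.6% of all genes). The median log2 fold change was 4.25 (3.47 with the lower bounds). With DMSO 16 were higher and none lower, with a median of 4.37 (3.15). Genes with counts only under M1 medium pass the filter because of those libraries, so these counts and medians describe the members that passed. Between IKK16 and DMSO 2 were higher and 5 lower (13.9% and 13.2% of all genes), and the count of those higher is near that share. CXCL8, which attracts neutrophils, stood at 0.0658, 0.0351 and 0.0310 CPM in control, 9.31, 10.2 and 8.56 with DMSO and 3.49, 2.68 and 2.32 with IKK16, and TNF at 0.0329, 0.105 and 0.0621 CPM in control, 10.4, 8.57 and 10.9 with DMSO and 5.54, 5.12 and 5.54 with IKK16. Both were lower with IKK16 than with DMSO and remained 58.6-fold and 77.0-fold above control. CXCL2 had 37 counts over the 3 DMSO libraries, 6 over the IKK16 libraries and none in control. TNFSF10, which encodes the death ligand TRAIL, stood at 3.89 ± 0.313, 90.4 ± 3.59 and 39.5 ± 2.67 CPM. CCL5 and CXCL10, which attract T cells, were the 2 that were higher with IKK16. CCL5 was at 0.329, 0.176 and 0.248 CPM in control, 2.10, 1.98 and 2.03 with DMSO and 5.82, 5.53 and 6.42 with IKK16, 2.91-fold above DMSO (edgeR adjusted p = 2.66e-07). CXCL10 was at 0.0757 ± 0.0352, 4.03 ± 0.352 and 5.93 ± 0.743 CPM, and its call against DMSO (edgeR adjusted p = 0.0326) was lost without DMSO library 1 or 3 or IKK16 library 2 (0.0863, 0.0999 and 0.146). CX3CL1, a membrane-bound chemokine with 1 count in control, reached 1.67 ± 0.224 CPM with DMSO and 1.76 ± 0.338 with IKK16. IL6 had no count in these 3 groups and IL1B had none in control and 9 in each treated group.

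Receptors and adaptors through which such ligands act changed less. Of 25 listed 24 passed the filter, and 18 were higher and 4 lower than control with IKK16 (26.8% and 25.6% of all genes). With DMSO these were 19 and 4, and the median log2 fold changes were 0.44 with IKK16 and 0.69 with DMSO. With IKK16 against DMSO 12 were lower and none higher (13.2% and 13.9% of all genes). IRAK2, an adaptor kinase below the interleukin 1 and Toll-like receptors, stood at 4.35, 4.32 and 5.15 CPM in control, 58.4, 54.7 and 54.5 with DMSO and 52.4, 55.3 and 51.8 with IKK16, and the treated groups overlapped. IFNGR1, a chain of the interferon gamma receptor, was at 27.0 ± 0.842, 289 ± 10.6 and 242 ± 11.9 CPM, and its call against DMSO was lost without DMSO library 1 or IKK16 library 2 or 3 (edgeR adjusted p of 0.0815, 0.0646 and 0.0724). OSMR, the oncostatin M receptor, was at 9.94 ± 1.11, 33.6 ± 3.11 and 21.7 ± 0.925 CPM. IL1R1, the interleukin 1 receptor, fell in both treated groups, from 41.6 ± 4.19 CPM to 20.1 ± 0.352 with DMSO and 21.2 ± 2.67 with IKK16.

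Most genes of the interferon gamma response were above control with IKK16, and 21 of 28 were lower than with DMSO. Of 31 listed 28 passed the filter, and 25 were higher and 1 lower than control with IKK16 (26.8% and 25.6% of all genes). With DMSO these were 26 and 1, and the median log2 fold changes were 1.70 with IKK16 and 2.10 with DMSO. None was higher with IKK16 than with DMSO, and the 21 that were lower stand beside 13.2% of all genes. IRF1, a transcription factor that interferons induce, stood at 3.95, 3.90 and 4.25 CPM in control, 97.8, 87.5 and 104 with DMSO and 56.5, 58.6 and 63.7 with IKK16. IRF1 was thus lower in each IKK16 library than in each DMSO library, and 14.7-fold above control. The guanylate-binding proteins, which act against pathogens inside cells, included larger differences: GBP2 stood at 1.88, 2.53 and 1.86 CPM in control, 137, 139.7 and 156 with DMSO and 32.8, 28.7 and 27.9 with IKK16, 4.84-fold lower with IKK16 than with DMSO (edgeR adjusted p = 9.14e-15). GBP4 stood at 0.0783 ± 0.0826, 14.8 ± 1.79 and 5.30 ± 0.698 CPM, and APOL1, a lipid-binding antiparasite protein, at 0.316 ± 0.0763, 65.7 ± 3.18 and 30.2 ± 1.68. IDO1, which breaks down tryptophan, had 2 counts in control and was at 3.67 ± 0.624 CPM with DMSO and 0.944 ± 0.0390 with IKK16. CD274, the gene of the immune checkpoint ligand PD-L1, was the member lower than control, going from 6.70 ± 0.831 CPM to 1.76 ± 0.240 with DMSO and 2.09 ± 0.521 with IKK16 (log2 fold change of -1.68 ± 0.18 SE with IKK16, edgeR adjusted p = 2.87e-08).

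Most genes of antigen presentation were above control in both treated groups. Of 21 class I genes 20 passed the filter. In each treated group 19 were higher than control and none lower (26.8% and 25.6% of all genes with IKK16). The medians were 1.48 with IKK16 and 2.05 with DMSO, and 14 were lower with IKK16 than with DMSO (13.2% of all genes). B2M, the light chain of class I molecules, stood at 197, 211 and 205 CPM in control, 1226, 1230.3 and 1255 with DMSO and 773, 771 and 753 with IKK16. PSMB9, a subunit of the immunoproteasome that cuts the peptides, stood at 1.25, 0.948 and 1.12 CPM in control, 39.4, 39.0 and 39.6 with DMSO and 18.9, 18.8 and 21.9 with IKK16. The 3 groups did not overlap for either gene. HLA-B was at 94.3 ± 7.80, 803 ± 18.1 and 418 ± 9.79 CPM. HLA genes share sequence, so reads may be divided among them in a way the counts do not show.

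All 14 class II genes passed the filter, and 10 were higher and 2 lower than control with IKK16 (26.8% and 25.6% of all genes). With DMSO these were 12 and none, and 12 were lower with IKK16 than with DMSO (13.2% of all genes). The medians were 3.87 with IKK16 (3.64 with the lower bounds), 5.48 with DMSO (5.05) and -1.41 between them. HLA-DRA, the alpha chain of HLA-DR, stood at 0, 0.105 and 0.0931 CPM in control, 116.2, 120.4 and 115 with DMSO and 39.5, 39.7 and 40.5 with IKK16, 2.94-fold lower than with DMSO (edgeR adjusted p = 6.52e-12). CD74, the invariant chain, stood at 2.30, 1.83 and 2.33 CPM in control, 126, 127 and 131 with DMSO and 46.9, 38.5 and 42.8 with IKK16. Both thus lay between control and DMSO in every IKK16 library. HLA-DQA1 was at 0 in control, 13.7 ± 1.03 CPM with DMSO and 3.79 ± 0.0701 with IKK16. HLA-DMA and HLA-DMB, which load peptides, were the 2 that fell below control with IKK16 (25.4 ± 1.16 to 20.4 ± 0.687 and 14.6 ± 0.978 to 7.69 ± 1.73 CPM). CIITA, the transactivator of class II genes, was at 14.1 ± 0.466, 24.6 ± 0.913 and 18.1 ± 2.02 CPM in control, DMSO and IKK16.

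**Figure D3:**
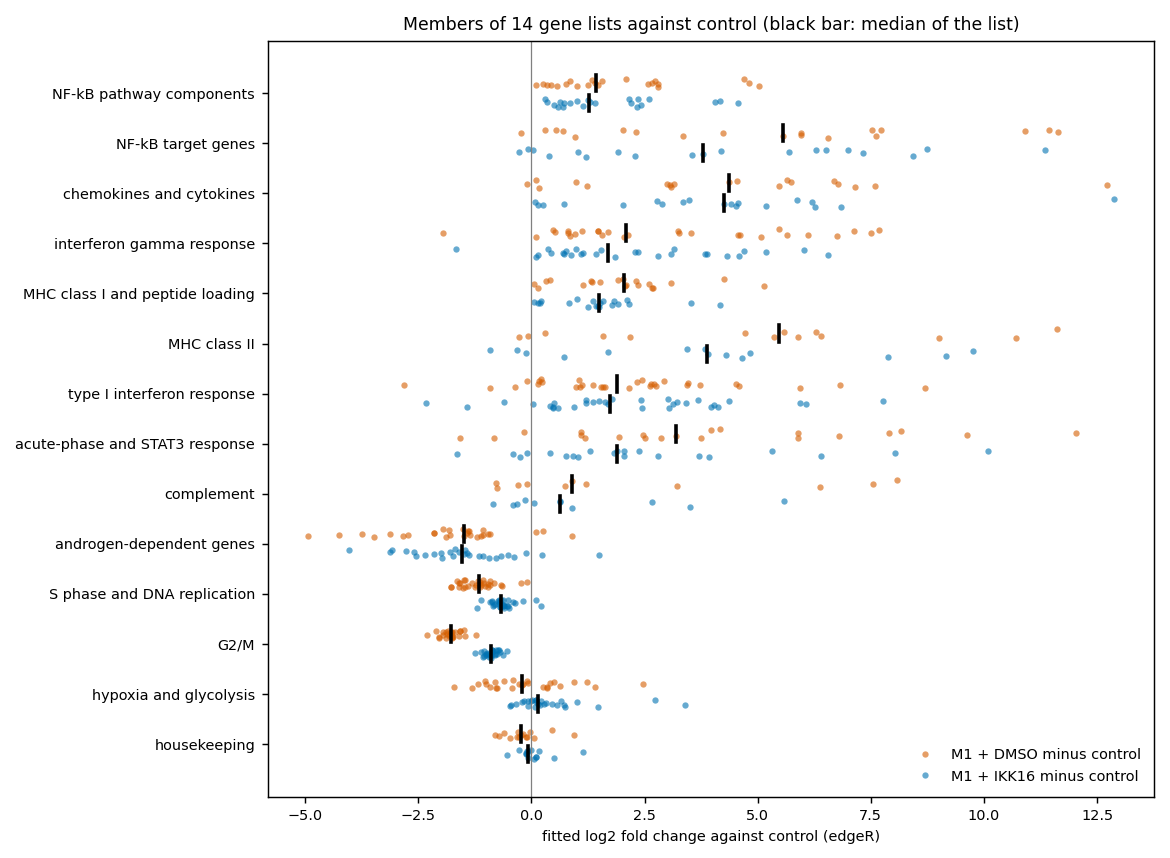
Fitted log2 fold change against control (horizontal axis, edgeR) of the tested members of 14 gene lists, with M1 medium plus DMSO in orange and M1 medium plus IKK16 in blue; each point is a gene and black bars are medians. Both comparisons use the same 3 control libraries. Medians lie nearer 0 with IKK16 for class II genes (3.87 against 5.48) and G2/M genes (-0.88 against -1.77) and are alike for androgen-dependent genes (-1.54 and -1.49).

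Among genes of the type I interferon response, more were higher than lower with IKK16 than with DMSO. All 32 listed passed the filter, and 28 were higher and 3 lower than control with IKK16 (26.8% and 25.6% of all genes). With DMSO these were 25 and 3, and the medians were 1.73 with IKK16 (1.66 with the lower bounds) and 1.89 with DMSO. Between IKK16 and DMSO 11 were higher and 6 lower (13.9% and 13.2% of all genes), with a median of 0.11. OASL, an antiviral relative of the oligoadenylate synthetases, stood at 2.50, 2.14 and 1.64 CPM in control, 9.61, 11.1 and 10.7 with DMSO and 41.9, 43.2 and 43.7 with IKK16, and IFIT1, which binds foreign RNA, at 1.28, 1.86 and 1.46 CPM in control, 10.9, 10.1 and 7.29 with DMSO and 20.3, 20.7 and 17.8 with IKK16. For both, each IKK16 library exceeded each DMSO library and these exceeded control: OASL was 4.08-fold and IFIT1 2.08-fold above DMSO (edgeR adjusted p = 2.52e-13 and 5.62e-07), and 20.5-fold and 12.8-fold above control. RSAD2, the antiviral enzyme viperin, stood at 0.373 ± 0.0474, 2.87 ± 0.165 and 6.15 ± 0.552 CPM. ISG15, a ubiquitin-like protein, and IFIT3 stood at 42.4 ± 1.95 and 1.14 ± 0.259 CPM in control, 89.4 ± 7.06 and 15.3 ± 0.622 with DMSO, and 119 ± 3.998 and 20.2 ± 0.468 with IKK16. The promoters printed above for IFIT1, IFIT3 and ISG15 carry ISRE matches and no NF-kB match; that of RSAD2 held no match to any of the 3 motifs in this window. OASL had no promoter entry. OAS2, an oligoadenylate synthetase, was at 4.25 ± 0.486 CPM with DMSO and 4.33 ± 0.719 with IKK16, against 0.0653 ± 0.0319 in control.

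Other members were lower with IKK16 than with DMSO. TRIM22, an antiviral ubiquitin ligase, stood at 0.757, 0.913 and 0.496 CPM in control, 17.5, 14.4 and 17.5 with DMSO and 5.54, 4.92 and 6.83 with IKK16. XAF1, a pro-apoptotic gene with no count in control, was at 1.81 ± 0.537 and 0.948 ± 0.166 CPM; its call against DMSO (edgeR adjusted p = 0.0165) was lost without DMSO library 1 or 2 or IKK16 library 1 or 3 (0.0683, 0.0844, 0.0631 and 0.0628). EPSTI1, USP18 and MX2 were the members lower than control with IKK16. EPSTI1 went from 3.24 ± 0.341 CPM to 0.468 ± 0.0966 with DMSO and 0.640 ± 0.171 with IKK16, and USP18, which dampens interferon signalling, from 13.9 ± 0.200 to 7.40 ± 0.302 and 9.10 ± 1.16. MX2 was at 0.638 ± 0.128 CPM in control, 0.736 ± 0.175 with DMSO and 0.234 ± 0.150 with IKK16, and its fall against control was lost without IKK16 library 1 (edgeR adjusted p = 0.0684).

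**Figure D4:**
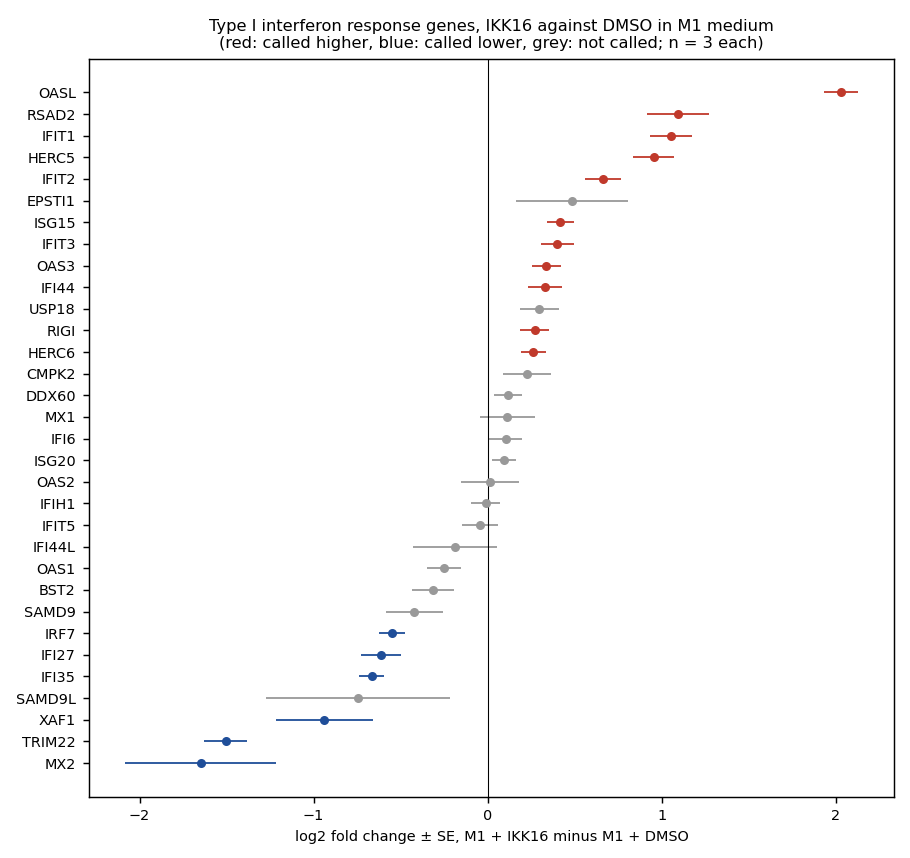
Log2 fold change ± SE between M1 medium with IKK16 and M1 medium with DMSO (horizontal axis, edgeR, n = 3 libraries per group) for the 32 type I interferon response genes, ordered by size; red marks the 11 called higher, blue the 6 called lower and grey the rest. OASL, RSAD2 and IFIT1 lie above 1, and MX2 and TRIM22 below -1.

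Genes of the acute-phase and STAT3 response were mostly lower with IKK16 than with DMSO. The list holds liver-type acute-phase genes, which in epithelia respond to STAT3 together with NF-kB, and signalling genes such as SOCS2 and PIM1. Of 27 listed 21 passed the filter, and 13 were higher and 2 lower than control with IKK16 (26.8% and 25.6% of all genes). With DMSO these were 17 and 2. The medians were 1.88 with IKK16 (1.30 with the lower bounds) and 3.20 with DMSO (2.51). Members with counts only under M1 medium pass the filter because of those libraries, so the counts describe the members that passed. With IKK16 against DMSO 15 were lower and 1 higher (13.2% and 13.9% of all genes). SERPINA3, the protease inhibitor antichymotrypsin, stood at 0.724, 1.30 and 1.68 CPM in control, 346, 345 and 386 with DMSO and 20.0, 17.97 and 18.5 with IKK16. ITIH4, an inter-alpha-trypsin inhibitor chain, stood at 1.38, 1.30 and 0.931 CPM in control, 70.4, 70.2 and 73.2 with DMSO and 6.85, 3.74 and 4.33 with IKK16. Each IKK16 library lay far below DMSO and above control: SERPINA3 was 19.1-fold below DMSO (log2 difference -4.25 ± 0.10 SE, edgeR adjusted p = 2.72e-19) and 15.1-fold above control, and ITIH4 was 14.3-fold below and 4.14-fold above. SAA1 and SAA2, serum amyloid genes whose sequences are nearly alike, had 3 and 0 counts in control, 29.5 ± 3.19 and 18.4 ± 2.30 CPM with DMSO, and 9.76 ± 0.180 and 4.78 ± 0.0872 with IKK16. HP, LBP and A2M, which encode haptoglobin, the lipopolysaccharide-binding protein and a broad protease inhibitor, were called higher than control with DMSO, and did not pass with IKK16. LBP stood at 0.0977 ± 0.0270, 1.61 ± 0.169 and 0.25002 ± 0.0304 CPM and A2M at 0.239 ± 0.137, 0.931 ± 0.122 and 0.456 ± 0.164, while HP had 0, 40 and 2 counts over the control, DMSO and IKK16 libraries. SOCS2, a suppressor of cytokine signalling, fell in both treated groups (19.1 ± 2.33 CPM in control, 6.37 ± 0.347 and 6.06 ± 0.381). PIM1, a kinase induced by STAT proteins, was the member higher with IKK16 than with DMSO (8.30 ± 0.348 and 6.18 ± 0.793 CPM), and was lower than control (11.1 ± 0.921).

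Of 14 other complement genes 11 passed the filter, and 6 were higher and 1 lower than control with IKK16 (26.8% and 25.6% of all genes). With DMSO these were 7 and 2. With IKK16 against DMSO 7 were lower and none higher (13.2% and 13.9% of all genes). The count of those lower than control with IKK16 was 2 without IKK16 library 1. C1S, a protease that starts the classical pathway, stood at 0.625, 0.140 and 1.18 CPM in control, 182, 175 and 186 with DMSO and 34.5, 28.3 and 33.7 with IKK16. C1R, its partner, stood at 13.4, 12.4 and 14.1 CPM in control, 119, 119 and 133 with DMSO and 23.6, 27.3 and 23.5 with IKK16. With IKK16 they were 5.62-fold and 4.98-fold below DMSO. C4B was at 0.152 ± 0.110, 29.4 ± 1.55 and 1.79 ± 0.0657 CPM, 16.4-fold below DMSO (edgeR adjusted p = 6.27e-15); C4A and C4B are near-identical copies, so the split of reads between them is uncertain. CFD, complement factor D, fell in both treated groups (9.82 ± 0.920, 5.69 ± 0.109 and 5.42 ± 0.273 CPM).

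Most androgen-dependent genes were low in both treated groups. All 28 listed genes that androgens regulate in prostate cells passed the filter; 25 were lower and 2 higher than control with IKK16 (25.6% and 26.8% of all genes), 25 and 1 with DMSO, with medians of -1.54 and -1.49. Between IKK16 and DMSO 15 were higher and 3 lower (13.9% and 13.2% of all genes), with a median of 0.22. The count of those lower is near that share. KLK3 stood at 3680.2, 3934 and 3519 CPM in control, 187, 185 and 214 with DMSO and 405, 438 and 468 with IKK16, and KLK2, the related kallikrein, at 609, 638 and 569 CPM in control, 19.3, 19.4 and 20.7 with DMSO and 33.0, 37.9 and 40.9 with IKK16. In both genes each IKK16 library was above each DMSO library and far below control: KLK3 was 8.50-fold and KLK2 16.2-fold below control (edgeR adjusted p = 6.43e-21 and 2.22e-22), with log2 differences from DMSO of 1.16 ± 0.06 and 0.91 ± 0.08 SE. TMPRSS2, a surface protease, stood at 1069.8 ± 43.0, 123 ± 9.17 and 183 ± 1.29 CPM, and TARP, read through from a T cell receptor gene in prostate cells and overlapping it, at 15.2 ± 1.99, 0.378 ± 0.0713 and 1.12 ± 0.247.

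NDRG1, a stress- and androgen-responsive gene, was nearest to control among the targets that fell, going from 344, 315 and 301 CPM in control and 99.2, 114 and 124 with DMSO to 203, 275 and 263 with IKK16. HERC3, ELOVL5 and TRPM8 were lower with IKK16 than with DMSO (TRPM8 not without DMSO library 2, edgeR adjusted p = 0.0731); HERC3, a ubiquitin ligase, stood at 235 ± 16.5, 124 ± 11.3 and 84.1 ± 5.71 CPM. STEAP2, a metalloreductase, and ADAM7 were the members higher than control. ADAM7 rose from 11.1 ± 0.0957 CPM to 20.5 ± 2.60 with DMSO and 31.5 ± 2.09 with IKK16, while the call for STEAP2 (0.23 ± 0.07 SE, edgeR adjusted p = 0.007) was lost without control library 2 or IKK16 library 1 (0.0578 and 0.0510), which leaves 1 such member.

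Genes of luminal identity moved in both directions. Of 20 listed 19 passed, with 9 higher and 7 lower than control with IKK16 (9 and 8 with DMSO) and a median of 0.05 (0.10). Beside these stand 26.8% and 25.6% of all genes with IKK16. SPDEF and HOXB13, transcription factors of luminal prostate cells, stood at 299.5 ± 11.0 and 544 ± 14.9 CPM in control, 96.6 ± 5.43 and 318 ± 8.69 with DMSO, and 113 ± 2.43 and 400.3 ± 13.8 with IKK16. FOXA1, a transcription factor that opens chromatin, did not pass against control (-0.04 ± 0.04 SE). ELF3, an epithelial transcription factor that NF-kB induces, stood at 33.5, 37.6 and 33.7 CPM in control, 399.5, 389 and 413 with DMSO and 229.7, 238 and 236 with IKK16, and CD24, a surface glycoprotein, at 2.13 ± 0.390, 47.5 ± 4.02 and 22.4 ± 0.857. The keratin KRT7 was at 0 in control and at 3.60 ± 0.754 and 2.63 ± 0.856 CPM in the treated groups, whereas KRT19 fell from 4.54 ± 0.611 CPM to 0.506 ± 0.0614 with DMSO and 1.19 ± 0.473 with IKK16.

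Of 15 basal epithelial genes 9 passed the filter. Of these 6 were higher and 2 lower than control with IKK16 (26.8% and 25.6% of all genes), and 7 and 2 with DMSO. The count of those lower with IKK16 is near that share. With a filter of 1 CPM 3 were called higher. The basal markers KRT5 and DSG3 had no count in these groups, and TP63 had 0, 3 and 12 counts over the control, DMSO and IKK16 libraries. LAMB3, a laminin chain of the basement membrane, stood at 0.263, 0.597 and 0.372 CPM in control, 119.7, 119 and 129 with DMSO and 48.6, 46.8 and 47.3 with IKK16. ITGB6, an epithelial integrin, was at 0.101 ± 0.0645, 2.99 ± 0.472 and 0.707 ± 0.158 CPM. LAMB3 was thus 115.8-fold above control and 2.58-fold below DMSO (edgeR adjusted p = 1.13e-12). KRT6A, a keratin of stressed epithelium, had no count in control and was at 0.559 ± 0.176 CPM with DMSO and 1.19 ± 0.226 with IKK16; its call against DMSO was lost without DMSO library 1 or 2 or IKK16 library 1 or 3 (edgeR adjusted p of 0.0842, 0.0620, 0.0649 and 0.0749). KRT14 fell from 2.96 ± 0.541 CPM to 0.118 ± 0.0899 and 0.239 ± 0.145.

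Stemness-associated genes showed no common direction. Of 24 listed 17 passed, with 8 higher and 6 lower than control with IKK16 (8 and 7 with DMSO) and a median of 0.48 (0.55). Beside these stand 26.8% and 25.6% of all genes with IKK16. SOX9, a transcription factor of progenitor cells, stood at 5.86, 4.85 and 4.096 CPM in control, 67.4, 66.3 and 70.7 with DMSO and 27.4, 27.7 and 27.5 with IKK16. KLF4, one of the reprogramming factors, stood at 19.4, 19.9 and 19.4 CPM in control, 72.8, 71.1 and 69.6 with DMSO and 71.96, 72.7 and 71.9 with IKK16. SOX9 was 5.59-fold above control and 2.47-fold below DMSO, while KLF4 was 3.69-fold above control with no detectable difference from DMSO (0.02 ± 0.06 SE). CXCR4, the receptor of CXCL12, was at 0.733 ± 0.0637, 2.89 ± 0.575 and 2.18 ± 0.485 CPM. ITGA6, LGR4 and TERT, the catalytic subunit of telomerase, fell: TERT stood at 5.07 ± 1.07 CPM in control, 1.12 ± 0.136 with DMSO and 1.44 ± 0.353 with IKK16.

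Of 22 mesenchymal genes 15 passed, with 6 higher and 4 lower than control with IKK16 (7 and 5 with DMSO), beside 26.8% and 25.6% of all genes; the count of those lower is near that share. Besides FN1, the secreted proteases MMP7 and MMP13 were higher. MMP7 stood at 2.17, 2.04 and 3.23 CPM in control, 312, 311 and 289 with DMSO and 409.7, 398 and 381 with IKK16, so that each IKK16 library exceeded each DMSO library (0.38 ± 0.09 SE, edgeR adjusted p = 0.00378; DESeq2 adjusted p = 0.0548). TWIST1 and SNAI2, transcription factors of the mesenchymal state, fell from 12.1 ± 0.836 and 1.001 ± 0.251 CPM to 3.26 ± 0.476 and 0.224 ± 0.103 with IKK16. VIM and ZEB1 did not pass (log2 fold changes of -0.23 and 0.03). Of 14 neuroendocrine genes 8 passed, with 2 higher and 2 lower than control (1 and 3 with DMSO), near the share of all genes (26.8% and 25.6% with IKK16). NTS, which encodes neurotensin, stood at 0.329, 0.140 and 0.465 CPM in control, 0.503, 0.570 and 0.652 with DMSO and 2.18, 1.22 and 1.94 with IKK16, while CHGB and INSM1 had no count in these groups.

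Proliferation genes fell less with IKK16 than with DMSO. Of the 31 listed genes of S phase and DNA replication, all of which passed the filter, 28 were lower and 1 higher than control with IKK16; with DMSO 30 were lower and none higher, and 30 were higher with IKK16 than with DMSO. All 26 G2/M genes passed and were lower than control in both treated groups, and all 26 were higher with IKK16 than with DMSO. Of all genes, 25.6% were lower than control with IKK16 and 31% with DMSO, and 13.9% were higher with IKK16 than with DMSO. The median log2 fold change against control was -0.66 with IKK16 and -1.16 with DMSO for S phase, and -0.88 and -1.77 for G2/M. In terms of mean CPM, the median S phase gene stood at 63.1% of control with IKK16 (range 43.5 to 116.2) and 44.7% with DMSO (29.2 to 92.6), and the median G2/M gene at 54.2% (42.1 to 69.2) and 29.3% (20.2 to 43.0).

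KIF20A, a kinesin of the dividing cell, stood at 103, 103 and 106 CPM in control, 20.9, 20.2 and 21.7 with DMSO and 46.6, 42.7 and 41.8 with IKK16. TOP2A, the topoisomerase that untangles chromosomes, stood at 211, 201 and 236 CPM in control, 50.3, 56.0 and 51.4 with DMSO and 121, 118 and 112 with IKK16, and MKI67, which encodes the proliferation marker Ki-67, at 75.3, 66.2 and 84.7 CPM in control, 19.8, 24.9 and 21.7 with DMSO and 37.3, 41.0 and 36.6 with IKK16. In all 3 genes the groups were fully separated, with IKK16 in between: KIF20A was 2.38-fold below control and 2.09-fold above DMSO (edgeR adjusted p = 4.41e-14 and 3.57e-11). RRM2, a subunit of ribonucleotide reductase, stood at 122 ± 1.997, 35.5 ± 1.49 and 68.2 ± 4.36 CPM, and E2F1, which drives entry into S phase, at 96.9 ± 8.19, 28.5 ± 1.70 and 42.2 ± 4.73. CCNE1, cyclin E1, was the member called higher than control (0.22 ± 0.08 SE, edgeR adjusted p = 0.0243), a call that was lost without control library 2 or IKK16 library 1 or 3 (0.0983, 0.0515 and 0.0511) and leaves no member higher.

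**Figure D5:**
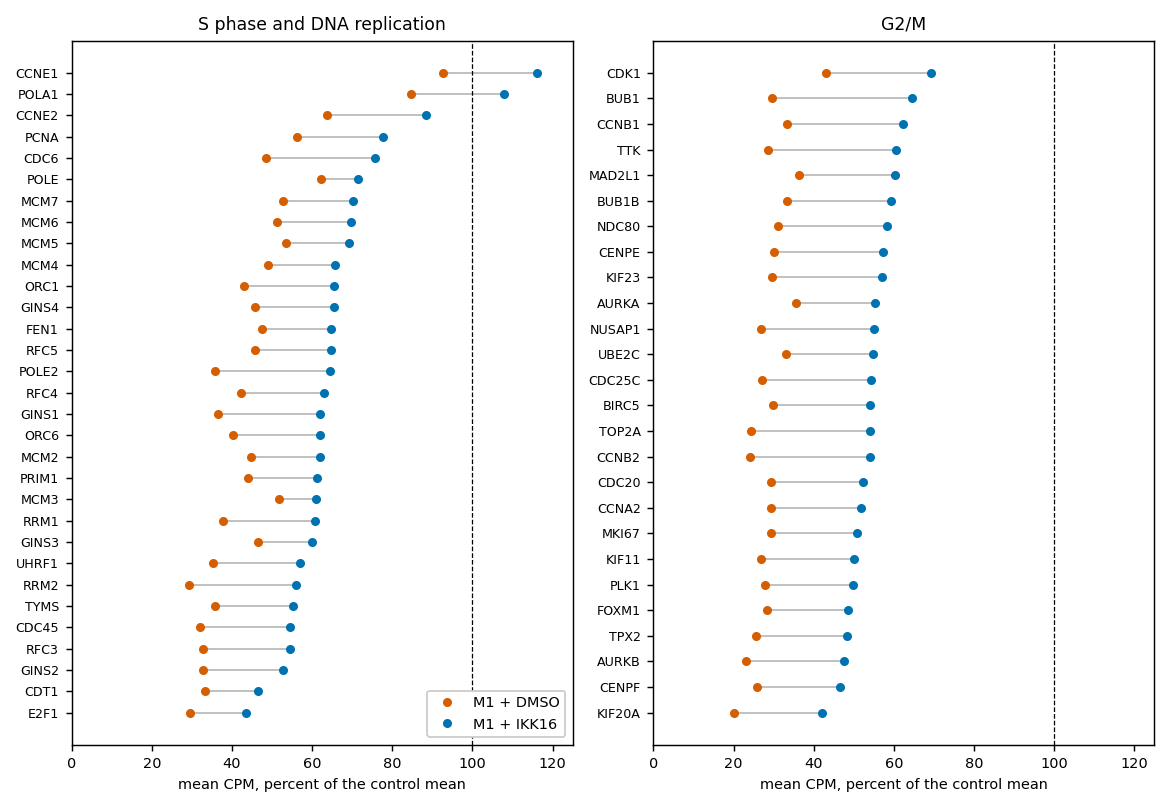
Mean CPM of each gene as a percentage of its control mean (horizontal axis; the dashed line at 100 is control) for 31 S phase genes (left) and 26 G2/M genes (right), with M1 medium plus DMSO in orange and M1 medium plus IKK16 in blue. All G2/M genes and all S phase genes but POLE were called higher with IKK16 than with DMSO, and all G2/M genes lie at or below 69.2% of control.

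Inhibitors of the cell cycle and p53 targets were mixed: all 28 listed passed, 16 were higher and 6 lower than control with IKK16 (18 and 5 with DMSO), with medians of 0.26 and 0.43. Beside 26.8% and 25.6% of all genes with IKK16, the count of those lower is near its share. CDKN1A, which encodes p21, stood at 203, 206 and 187 CPM in control, 522, 483 and 531 with DMSO and 398, 414 and 430.1 with IKK16, and CDKN2B, which encodes p15, at 1.05, 1.30 and 1.21 CPM in control, 22.8, 23.4 and 24.5 with DMSO and 12.2, 10.7 and 10.6 with IKK16. Both were thus lower with IKK16 than with DMSO and above control, 2.09-fold and 9.36-fold. GDF15, a secreted stress cytokine, stood at 1724, 1685 and 1489.7 CPM in control, 2776, 2609 and 2579.8 with DMSO and 3721, 4151 and 4212 with IKK16, highest with the inhibitor (0.60 ± 0.07 SE against DMSO, edgeR adjusted p = 1.53e-06). CDKN2C, which encodes p18, fell to 16.02 ± 0.186 CPM with IKK16 from 44.5 ± 3.62 in control.

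Of 20 apoptosis regulators 19 passed, and 15 were higher and 1 lower than control in both treated groups (26.8% and 25.6% of all genes with IKK16). With IKK16 against DMSO 9 were lower (13.2% of all genes) and none higher. The count of those lower than control was 2 without control library 1 or without IKK16 library 2. CASP10, an initiator caspase, stood at 3.42, 3.02 and 2.54 CPM in control, 50.1, 50.005 and 52.7 with DMSO and 29.9, 28.6 and 27.7 with IKK16, 9.60-fold above control. BMF and BBC3, which encode BH3-only proteins that trigger apoptosis, stood at 12.1 ± 0.533 and 16.98 ± 2.12 CPM in control, 47.0 ± 4.21 and 54.96 ± 3.54 with DMSO, and 20.6 ± 1.06 and 32.1 ± 5.35 with IKK16. BCL2L11, which encodes BIM, was the member lower than control (-0.32 ± 0.09 SE with IKK16).

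Genes of hypoxia and glycolysis were mostly higher with IKK16 than with DMSO. All 27 listed passed, and 13 were higher and 4 lower than control with IKK16 (26.8% and 25.6% of all genes). With DMSO these were 9 and 15, and the medians were 0.15 with IKK16 and -0.21 with DMSO. With IKK16 against DMSO 23 were higher and 1 lower (13.9% and 13.2% of all genes). LDHA, lactate dehydrogenase A, stood at 703, 688 and 675 CPM in control, 318, 336 and 378 with DMSO and 663, 715 and 688 with IKK16. PFKFB3, which speeds glycolysis, stood at 52.2, 47.0 and 48.3 CPM in control, 24.6, 25.6 and 27.5 with DMSO and 38.8, 56.2 and 54.6 with IKK16. For both, the IKK16 and control libraries overlapped and the DMSO libraries lay below them (log2 differences between IKK16 and DMSO of 1.00 ± 0.07 and 0.95 ± 0.11 SE; edgeR adjusted p = 4.74e-11 and 1.15e-06). BNIP3 and PGK1 stood at 145 ± 6.08 and 446 ± 23.6 CPM in control, 83.4 ± 3.91 and 294 ± 15.3 with DMSO, and 138 ± 5.16 and 477 ± 52.1 with IKK16; neither passed against control (edgeR adjusted p = 0.413 and 0.304), though PGK1 did without IKK16 library 1 (0.0479). PDK1, SLC2A1 and BHLHE40 were higher than with DMSO and lower than control, and PDK1, a pyruvate dehydrogenase kinase, stood at 124.6 ± 2.01, 37.9 ± 2.51 and 91.6 ± 8.29 CPM. EGLN3, an oxygen-sensing prolyl hydroxylase, rose in both treated groups (22.1 ± 2.24, 122 ± 0.573 and 147 ± 7.87 CPM). CA9, carbonic anhydrase 9, rose from a very low level, standing at 0.0658, 0.0702 and 0.0621 CPM in control, 0.0839, 0.210 and 0.0768 with DMSO and 0.277, 1.14 and 0.797 with IKK16.

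Of 27 cholesterol and fatty acid genes 26 passed, 5 were higher and 13 lower than control with IKK16 (26.8% and 25.6% of all genes) and 4 and 16 with DMSO, with medians of -0.13 and -0.29. With IKK16 against DMSO 12 were higher and 2 lower (13.9% and 13.2% of all genes). All 24 genes of the unfolded protein and ATF4 response passed, with a median of 0.01 with IKK16. Of these 11 were higher and 5 lower than control with IKK16 (26.8% and 25.6% of all genes), and 11 and 6 with DMSO. The count of those lower with IKK16 is near that share. PPP1R15A, which reverses the translation block, stood at 4.18 ± 0.0935, 12.1 ± 0.521 and 9.45 ± 0.306 CPM. Of 15 housekeeping genes, 3 were higher and 2 lower than control with IKK16 (26.8% and 25.6% of all genes), with a median of -0.07. With DMSO 2 were higher and 10 lower, with a median of -0.24. With IKK16 against DMSO 11 of the 15 were higher (13.9% of all genes) and none lower, with a median of 0.20. The rises over DMSO of hypoxia and glycolysis genes thus stand beside rises in most of these, and their part in that result was not tested. The 15 include PGK1, described above with the glycolysis genes, and GAPDH, another glycolysis gene, so they are not an independent yardstick. The 3 higher than control with IKK16 were TFRC, YWHAZ and GAPDH.

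Some genes that M1 medium with DMSO had changed by at least 2-fold were not detectably different from control under IKK16, with a fitted log2 difference within 0.5. The 5 with the largest rise under DMSO were FGL1, ELAPOR1, WNT5A, EDN2 and KRT6C. FGL1, a secreted liver-type protein, stood at 0.198, 0.772 and 0.621 CPM in control, 5.83, 7.76 and 7.64 with DMSO and 0.238, 0.244 and 0.835 with IKK16, and ELAPOR1, a membrane protein of the endosomal route, at 3.98, 4.14 and 4.34 CPM in control, 18.6, 16.5 and 19.5 with DMSO and 4.28, 4.59 and 5.20 with IKK16. WNT5A, a secreted Wnt ligand, was at 4.75 ± 1.15, 17.8 ± 0.580 and 5.97 ± 0.934 CPM. The IKK16 and control libraries overlapped for FGL1 and ELAPOR1. The difference of WNT5A from control did not pass (edgeR adjusted p = 0.0637) but did without control library 1 or 3 or IKK16 library 1 (0.0453, 0.0204 and 0.0273), and with DESeq2 (0.0467). EDN2, which encodes endothelin 2, stood at 2.01, 1.51 and 1.24 CPM in control, 6.17, 4.89 and 5.14 with DMSO and 1.15, 2.81 and 2.62 with IKK16. Its log2 fold change against control was 0.47 and did not pass (edgeR adjusted p = 0.127), but without IKK16 library 1 it was 0.78 and passed (0.00499). KRT6C, a keratin, was at 1.41 ± 0.0776, 4.54 ± 0.329 and 1.19 ± 0.206 CPM.

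The 5 with the largest fall under DMSO were HTR5A, AKAP12, THRSP, KISS1R and KNG1. HTR5A, a serotonin receptor, stood at 1.15, 1.44 and 1.02 CPM in control, 0.0420, 0.0300 and 0.192 with DMSO and 0.792, 1.63 and 1.44 with IKK16, and AKAP12, a scaffold of protein kinase A, at 6.25, 4.25 and 5.12 CPM in control, 0.545, 0.749 and 1.11 with DMSO and 2.46, 6.10 and 4.75 with IKK16. Both overlapped with control under IKK16. With DMSO both lay below control, which the choice of these genes required. THRSP, a regulator of fat synthesis, did not pass against control (-0.47 ± 0.21 SE, edgeR adjusted p = 0.0652), although its 3 IKK16 libraries (1.43, 1.42 and 1.52 CPM) lay below the control libraries (1.98, 1.97 and 2.11). KISS1R, the kisspeptin receptor, and KNG1, kininogen, were at 1.30 ± 0.114 and 1.57 ± 0.544 CPM in control, 0.251 ± 0.155 and 0.395 ± 0.261 with DMSO, and 0.938 ± 0.611 and 1.28 ± 0.196 with IKK16. These levels are low, and a p that misses the threshold does not show that the values are equal.

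A last group was changed against control and, in the same direction, against DMSO. Its genes were picked only where the IKK16 libraries overlapped neither control nor DMSO, so that separation was set by the choice. The 5 higher with the largest such differences were DMKN, OASL, SHISA3, NTS and CLCN1. SHISA3, an inhibitor of Wnt and growth factor receptors, stood at 0.790, 0.421 and 0.652 CPM in control, 0.629, 0.510 and 0.652 with DMSO and 1.86, 2.24 and 1.86 with IKK16, and CLCN1, a chloride channel, at 0, 0.0702 and 0.0621 CPM in control, 0.420, 0.570 and 0.192 with DMSO and 1.23, 1.02 and 1.40 with IKK16. By that choice, each IKK16 library of both genes exceeded all control and DMSO libraries. CLCN1 did not pass against DMSO without DMSO library 3 (edgeR adjusted p = 0.0506). DMKN, an epidermal secreted protein with 3 counts in control, was at 0.302 ± 0.213 CPM with DMSO and 1.16 ± 0.268 with IKK16, and that difference did not pass without DMSO library 2 (edgeR adjusted p = 0.081) or with DESeq2 (adjusted p = 0.284). The 5 lower were CACNG4, TTR, SLC15A2, ZGLP1 and ARID5B. ARID5B, a chromatin-binding protein, stood at 29.8, 27.0 and 30.9 CPM in control, 25.8, 27.5 and 26.9 with DMSO and 12.4, 12.8 and 12.3 with IKK16, so that the control and DMSO libraries overlapped and IKK16 lay below both (log2 difference from DMSO -1.09 ± 0.08 SE, edgeR adjusted p = 5.09e-10). TTR, the thyroxine carrier transthyretin, stood at 1.45, 1.69 and 2.27 CPM in control, 3.19, 2.31 and 2.15 with DMSO and 0.554, 0.691 and 0.456 with IKK16. CACNG4, a calcium channel subunit, SLC15A2, a peptide transporter, and ZGLP1, a zinc finger protein, stood at 0.168 ± 0.119, 0.912 ± 0.267 and 0.470 ± 0.160 CPM with IKK16, against 1.46 ± 0.155, 3.27 ± 0.702 and 1.34 ± 0.272 in control; against DMSO, CACNG4 did not pass without DMSO library 3 (edgeR adjusted p = 0.0738), nor ZGLP1 without DMSO library 1 or IKK16 library 2 (0.0780 and 0.103).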

How the data were processed

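RNA sequencing of polyadenylated RNA was analysed, paired-end per the labels. The deposited table holds expected counts for RefSeq transcripts, not normalised by the authors; its values are multiples of 0.5. The submitters' processing notes name hg38, Trimmomatic, BWA 0.7.17 and HOMER 4.10; which step each did, how reads with several matches were counted and whether strand was used is not given in the sources used here. Reads of a gene and of an antisense or overlapping partner therefore cannot be told apart.

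Groups were taken from the labels. Of 70507 transcripts, 69830 were named from an NCBI table (GRCh38.p14) and 343 from GENCODE 29; 334, with 0.0883 to 0.109% of a library's counts, could not be named and were left aside. Each gene was represented by its transcript of highest total count (28100 genes, 44.6% with several transcripts), so a switch of transcript can appear as a change of the gene. Expected counts were rounded to whole numbers.

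edgeR 4.0.16 (R 4.3.3) was used with TMM scaling, its default filter over 6 groups, which retained 17073 genes and removed 11027, and its quasi-likelihood test with 1 mean per group in a fit of 18 libraries, which share 1 estimate of the spread. Adjustment was by the Benjamini-Hochberg method within each of the 4 comparisons. CPM was scaled by TMM and is summarised as mean ± SD of 3 libraries; the SE of a log2 fold change comes from its F statistic. Folds against a group at 0 use 3 counts per library and are lower bounds; genes with 1 to 3 counts in a group get no fold. Such floors cover counting error only, since amplified reads without molecular identifiers are not independent molecules. Replicates differed by more than sampling noise (chi-square per gene 2.67 to 20.9).

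Genes named in the text are those of the series title; the 8 largest rises and falls against control; the 5 most abundant of those risen at least 4-fold; the 5 with the largest DMSO change per direction that lay within 0.5 of control on the log2 scale and did not pass; the 5 per direction furthest beyond DMSO; and of each list, up to 3 members per direction against control and 2 against DMSO. Genes picked by size from all genes were protein-coding, with a group mean of 1 CPM or more and no overlap of the libraries compared. List members were picked without these limits. Named after their values were seen were A2M, B2M, BCL2L1, BNIP3, C1R, CCND1, CD68, CD74, CDKN1A, CIITA, ELOVL5, FOXA1, IFIT1, IFIT3, IRF1, ISG15, ITIH4, KRT18, LBP, LDHA, MKI67, NFKB2, NFKBIA, PFKFB3, SOD2, TMPRSS2, TNFSF10, VIM, ZEB1, the genes of low count and those of the closing section. Some items are not reported here. Members and lists were chosen with earlier results of these data known, so list counts are descriptions. Alternatives were DESeq2 1.42.0, its scaling, other filters, the longest transcript, a removed trend with transcript length, the 2 groups alone, a replicate block, and each library left out.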

Additional observations from a re-analysis of the deposited data

How the results depend on the processing

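Counts of changed genes for M1 medium with IKK16 against control kept within 1.5 times their value under every alternative tried, with 4275 to 4822 higher, 972 to 1344 higher by at least 2-fold and 553 to 842 lower by at least 2-fold; leaving out single libraries gave 4217 to 4434 higher, 3876 to 4126 lower, and 1199 to 1234 and 708 to 746 of at least 2-fold. Of 234 genes checked singly, none reversed in any comparison. Under some alternative 10 of them changed their call in IKK16 against control, 12 in DMSO against control and 38 in IKK16 against DMSO. Some genes named in the text, such as HP, LBP, A2M, MKI67, VIM and ZEB1, were not among those checked. The replicate numbers did not pair the libraries (correlations of deviations from -0.148 to 0.0176), and with the replicate block 4551 were higher and 4337 lower, 1215 and 729 by at least 2-fold. M1 medium with DMSO against M1 medium alone was unstable. Its 437 higher became 726 with the length trend removed, 873 with the 2 groups alone, 753 with DESeq2 and 29 to 811 without single libraries. Its 336 lower became 694 with the 2 groups alone, 510 with DESeq2 and 47 to 678 without single libraries. Of at least 2-fold, the 2 higher became 8 without a filter, 0 with a filter of 1 CPM, 7 with the length trend removed, 0 with DESeq2 and 1 to 6 without single libraries, and the 7 lower became 4 with a filter of 1 CPM, 11 with the 2 groups alone, 0 with DESeq2 and 1 to 12 without single libraries; with edgeR 3663 genes had an unadjusted p under 0.05. The cause was not tested. Of 728 counts over gene lists, 14 moved by over 1.5 times, all of them counts of 6 genes or fewer. At this depth, 3 counts correspond to 0.0899 to 0.126 CPM, so that differences among genes below that level are not detectable.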

Other observations

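Of 5 genes of antioxidant defence and iron storage, chosen after their values were seen, each was called higher than control with IKK16 and none passed between the treated groups in the fit over all groups. GCLM, a subunit of the enzyme that starts glutathione synthesis, stood at 52.6, 48.2 and 58.6 CPM in control, 176, 159 and 165 with DMSO and 174, 162 and 160.0 with IKK16, and NQO1, a quinone reductase, at 123, 134 and 137 CPM in control, 337, 323 and 323 with DMSO and 335, 325 and 321 with IKK16. The treated libraries overlapped for both genes and lay above control (1.64 ± 0.06 and 1.32 ± 0.05 SE with IKK16). HMOX1, which breaks down haem, stood at 10.2 ± 0.993, 54.7 ± 4.59 and 47.6 ± 5.07 CPM in control, DMSO and IKK16; its difference between the treated groups did not pass (edgeR adjusted p = 0.0858), but did without IKK16 library 3 (0.0326) and with the 2 groups alone (0.0450). FTL, the light chain of ferritin, stood at 124 ± 4.45, 252 ± 5.67 and 233 ± 14.6 CPM, and TXNRD1, thioredoxin reductase, at 1633 ± 159.7, 2339.7 ± 43.9 and 2543 ± 72.03. Between the treated groups TXNRD1 passed, as higher with IKK16, with the 2 groups alone (edgeR adjusted p = 0.00986), and FTL passed, as lower, with the length trend removed (0.00872). FTH1, described above, was lower with IKK16 than with DMSO.

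Noncoding RNAs changed in either direction, again named after their values were seen. HCP5, a transcript from the HLA region, stood at 1.68, 1.19 and 1.21 CPM in control, 22.2, 25.2 and 24.1 with DMSO and 7.45, 7.68 and 6.91 with IKK16, thus between the other groups in every library, 3.25-fold below DMSO (edgeR adjusted p = 6.47e-12). PSLNR, a noncoding RNA of prostate cells, and KLKP1, a transcribed pseudogene of the kallikrein cluster, fell from 6.14 ± 0.362 and 8.53 ± 1.34 CPM to 0.676 ± 0.278 and 2.05 ± 0.534 with DMSO and 0.746 ± 0.111 and 2.10 ± 0.276 with IKK16. PEG3-AS1, whose reads may include those of its antisense partner, stood at 30.5, 26.4 and 34.9 CPM in control, 1.09, 1.38 and 1.88 with DMSO and 6.06, 7.03 and 6.45 with IKK16. NEAT1 and MALAT1, abundant nuclear RNAs, rose over control by 0.67 and 0.97 on the log2 scale with IKK16.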
